A study of Mus musculus with 3 samples.

Results

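The dual-specificity phosphatases of the MAP kinases were followed in mouse CD4 T cells before and after 3 days of polarising culture. The 9 genes are Dusp1, Dusp2, Dusp4, Dusp5, Dusp6, Dusp7, Dusp10, Dusp14 and Dusp16, out of 19751 genes named on the arrays. They were chosen by family and with their measured ratios and levels in view, so everything below is a description of these values. All 9 had a probe and all 9 gave signal well above background in every channel. Dusp16 had 2 probes and the other genes 1 each.

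Naive CD4 T cells came from the spleens of C57BL/6 mice aged 6 to 8 weeks and were sorted by magnetic beads. Th2 cells, the type 2 helper lineage, were made with IL-2 at 1 ng/ml, IL-4 at 5 ng/ml and antibody to interferon gamma at 2 µg/ml. Th9 cells, helper cells that make IL-9, were made with IL-2 at 0.2 ng/ml, IL-4 at 1 ng/ml, human TGF-beta 1 at 2 ng/ml and antibody to interferon gamma at 5 µg/ml. Induced regulatory T cells (iTreg) were made with IL-2 at 0.4 ng/ml, human TGF-beta 1 at 5 ng/ml and antibodies to interferon gamma and to IL-4 at 5 µg/ml each. All 3 cultures also received plate-bound antibody to CD3e and soluble antibody to CD28, both at 10 µg/ml, which the naive cells did not. Activation and the added cytokines therefore cannot be told apart in a ratio to naive cells, while differences between cultures compare media that share the activation. RNA of each culture, in Cy5, was hybridised with naive RNA, in Cy3, on 1 Agilent 2-colour array, with no dye swap and all 3 arrays on 1 slide. With 1 array per culture there is no spread between replicates and no test, and culture and array position cannot be told apart.

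MAP kinases (ERK, JNK and p38) are switched on when their activation loop is phosphorylated on threonine and tyrosine. Dual-specificity phosphatases remove both phosphates and so end the signal. Many of their genes are switched on by the same kinases, which makes them feedback brakes, and in T cells the antigen receptor and CD28 are strong inducers of MAP kinase activity. Dusp1, Dusp2, Dusp4 and Dusp5 encode nuclear enzymes, Dusp6 and Dusp7 encode cytoplasmic enzymes directed at ERK, and Dusp10 and Dusp16 encode enzymes that prefer JNK and p38. Dusp14 encodes a small phosphatase without the docking domain of the others.

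Values are log2 ratios of culture over naive on the same array after loess normalisation, and ± gives the error that the scanner software assigned to that spot (n = 1 array). That error was computed for the scanner's own ratio of processed signals and is not an error of the loess ratio. A gene was counted as higher or lower when the ratio was at least 2-fold. Spot intensities given below are raw, before correction for background or dye, so the Cy5 and Cy3 intensities of a gene are not on the same scale. Of the 9 genes, Dusp4, Dusp14 and Dusp16 were higher than in naive cells on all 3 arrays, Dusp1, Dusp2 and Dusp7 were lower on all 3, and Dusp5, Dusp6 and Dusp10 met neither description. Among 10343 genes measured on all 3 arrays, 7.29% were higher and 6.01% were lower throughout. The Th2 culture had 3 of 9 genes higher and 3 lower, where 14.8% and 14.5% of 10940 measured genes were. The Th9 culture had 4 higher and 3 lower, where 15.5% and 15.6% of 10775 genes were. The iTreg culture also had 4 higher and 3 lower, where 10.2% and 8.14% of 11110 genes were. The median of the 9 ratios was 0.10 in Th2, -0.66 in Th9 and 0.49 in iTreg cells, and the median of all genes was -0.02, -0.01 and -0.02. The ratios were used to choose the genes, so nothing is read from these counts.

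**Figure D1:**
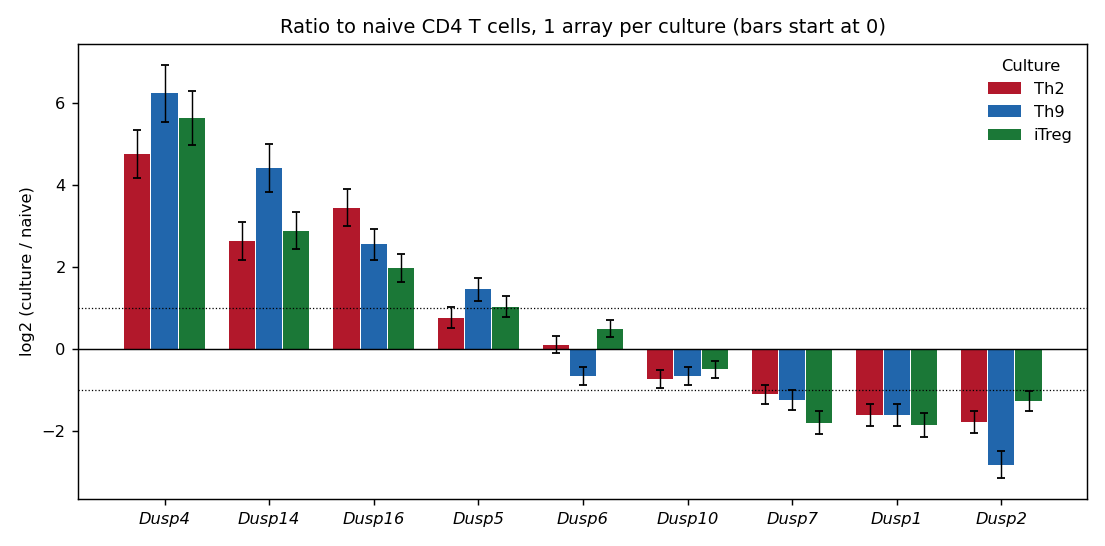
Log2 ratio of culture over naive cells for the 9 phosphatase genes, 1 bar per culture (Th2, Th9, iTreg), with the scanner software's error as whiskers and dotted lines at 2-fold. Dusp4 reaches 6.22 in Th9 cells, and Dusp2 goes down to -2.82 there.

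The promoters of genes that were higher and of genes that were lower are given so that the sequences can be read beside the values: Dusp14 and Dusp16 (higher on all 3 arrays), Dusp5 (past 2-fold in Th9 and iTreg) and Dusp1 and Dusp2 (lower on all 3). They are RefSeq sequences of mouse build GRCm38.p6, from 250 bases before to 50 after the start of the gene, and 8 of the 9 genes, all but Dusp4, were matched. The search covered 9 motifs, on both strands, of factors that act downstream of MAP kinases or cytokines: the AP-1 site TGANTCA, the cAMP response element TGACGTCA, its part TGACG, the ETS site CCGGAAG, the CArG box of serum response factor, the STAT site TTCNNNGAA, the EGR site GCGNGGGCG, the E-box CACGTG and the SMAD element GTCTAGAC. Capitals mark matches, other than to TGACG, and each sequence runs 5′ to 3′ on the strand of its gene.
Dusp14, chr11:84068308-84068607, minus strand: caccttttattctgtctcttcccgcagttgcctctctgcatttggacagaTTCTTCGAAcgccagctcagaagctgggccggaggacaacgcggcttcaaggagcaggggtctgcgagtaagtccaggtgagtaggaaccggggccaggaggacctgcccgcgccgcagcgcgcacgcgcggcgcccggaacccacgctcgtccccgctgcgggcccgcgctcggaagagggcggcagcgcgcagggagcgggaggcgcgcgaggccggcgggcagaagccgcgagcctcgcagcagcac
Dusp16, chr6:134792579-134792878, minus strand: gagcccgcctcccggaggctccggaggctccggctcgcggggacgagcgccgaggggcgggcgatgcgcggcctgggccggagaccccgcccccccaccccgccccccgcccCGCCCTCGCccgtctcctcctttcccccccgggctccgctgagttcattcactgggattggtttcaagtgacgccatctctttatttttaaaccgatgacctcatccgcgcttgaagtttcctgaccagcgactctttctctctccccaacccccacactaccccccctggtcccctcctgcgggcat
Dusp5, chr19:53528895-53529194, plus strand: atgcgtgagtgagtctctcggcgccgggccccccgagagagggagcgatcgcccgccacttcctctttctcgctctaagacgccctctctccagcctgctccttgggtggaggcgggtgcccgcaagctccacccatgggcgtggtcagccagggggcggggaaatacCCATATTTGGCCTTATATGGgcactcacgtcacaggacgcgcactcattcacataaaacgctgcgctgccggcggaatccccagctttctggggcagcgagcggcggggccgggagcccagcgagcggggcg
Dusp1, chr17:26508423-26508722, minus strand: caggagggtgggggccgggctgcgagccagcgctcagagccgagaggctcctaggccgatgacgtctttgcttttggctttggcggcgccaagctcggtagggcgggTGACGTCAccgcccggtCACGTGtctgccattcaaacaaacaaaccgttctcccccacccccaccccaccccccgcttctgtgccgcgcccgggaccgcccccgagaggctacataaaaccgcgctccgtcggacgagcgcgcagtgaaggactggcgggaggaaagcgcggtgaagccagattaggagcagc
Dusp2, chr2:127335909-127336208, plus strand: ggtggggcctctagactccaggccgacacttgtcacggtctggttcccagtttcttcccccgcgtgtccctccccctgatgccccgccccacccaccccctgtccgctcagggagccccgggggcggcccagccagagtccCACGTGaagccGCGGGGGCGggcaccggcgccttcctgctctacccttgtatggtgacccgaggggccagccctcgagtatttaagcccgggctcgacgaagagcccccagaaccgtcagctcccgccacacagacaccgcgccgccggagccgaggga

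Dusp14 holds 1 STAT site at -200 from its start, a motif found in 8.3% of 32851 mouse promoters of this length. Dusp16 and Dusp2 each hold 1 EGR site, at -138 and -98, and 5.55% of all promoters hold one. Dusp5 holds 2 adjoining CArG boxes, at -82 and -72, against 1.63% of promoters with any. Dusp1 holds the full cAMP response element at -143 (1.79% of promoters), and Dusp1 and Dusp2 hold an E-box, at -126 and -109 (7.15%). The letters TGACG, which also form each side of the full element, stand in Dusp1, Dusp2, Dusp5 and Dusp16 and in 20.8% of promoters. No window of the 8 genes holds the AP-1 site (7.81% of promoters), the ETS site (8.86%) or the SMAD element (0.213%), and the windows of Dusp6, Dusp7 and Dusp10 hold none of the 9 motifs. These are matches of letters in a short window and were not tied to the expression values.

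Among the nuclear enzymes, Dusp4 showed the highest ratios of the family. Dusp4 dephosphorylates ERK and JNK in the nucleus. Its raw spot intensity was 4710 in Th2, 18244 in Th9 and 8825 in iTreg cells, against 129, 177 and 141.5 in naive cells on the same 3 arrays, with a local background of 28 to 30 in the naive channel. Each culture was far brighter than the naive channel of its array, and the naive signal was low but above background. After normalisation Dusp4 was 4.75 ± 0.59 in Th2, 6.22 ± 0.70 in Th9 and 5.62 ± 0.66 in iTreg on the log2 scale, which is 26.8-, 74.8- and 49.3-fold. Dusp4 ranked 27 of 10940 genes in Th2, 2 of 10775 in Th9 and 3 of 11110 in iTreg. The naive signal was low, and the size of these folds varied with the background correction: with the scanner's own processed signals the log2 ratios were 5.81, 6.93 and 6.49.

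Dusp5, a nuclear phosphatase specific for ERK, was raised much less. Its spot intensity was 247 in Th2, 382 in Th9 and 316.5 in iTreg cells, against 120, 122 and 127 in naive cells. Each culture was brighter than the naive channel of its array. The log2 ratio was 0.76 ± 0.26 in Th2, below the 2-fold mark, 1.45 ± 0.28 in Th9, and 1.02 ± 0.26 in iTreg, just past it. With the scanner's processed signals all 3 were past 2-fold, at 1.20, 1.90 and 1.45. With median centring the iTreg value was 0.84 and no longer past 2-fold.

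Dusp1 and Dusp2, the other nuclear enzymes, were lower in every culture. Dusp1 encodes an early response phosphatase that acts on p38 and JNK. Its spot intensity was 544 in Th2, 561.5 in Th9 and 417.5 in iTreg cells, against 1381, 1437.5 and 1397 in naive cells. Each culture was dimmer than the naive channel of its array. The log2 ratio was -1.62 ± 0.27 in Th2, -1.61 ± 0.27 in Th9 and -1.85 ± 0.28 in iTreg. Dusp2, a phosphatase of blood cells that was first found in activated T cells, had spot intensities of 68386 in Th2, 33285 in Th9 and 60043 in iTreg cells, against 79420, 88964.5 and 73290 in naive cells. The Th9 channel was the lowest of all 6. The log2 ratio of Dusp2 was -1.78 ± 0.26 in Th2, -2.82 ± 0.33 in Th9 and -1.27 ± 0.24 in iTreg.

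Its size depends on the correction for dye bias more than for any other gene of the family. Dusp2 was brighter than 98.4% of genes, and at this brightness the loess curve moved its ratio by 1.60, 1.21 and 0.47 log2 units in Th2, Th9 and iTreg. With median centring alone Dusp2 stood at -0.18 in Th2, -1.61 in Th9 and -0.80 in iTreg, where the median of all genes stood at 0.33, 0.16 and -0.18. The Dusp2 ratio was below 0 with either method, at least 2-fold in all cultures with loess and in Th9 alone without it. In Th2 the value of -0.18 without loess was within the spot error of 0.26.

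The cytoplasmic ERK phosphatases differed from each other. Dusp7 had spot intensities of 885 in Th2, 817 in Th9 and 491 in iTreg cells, against 1544, 1585 and 1571 in naive cells. The iTreg channel was the dimmest, and each culture was dimmer than the naive channel of its array. The log2 ratio of Dusp7 was -1.11 ± 0.24 in Th2, -1.25 ± 0.24 in Th9 and -1.80 ± 0.28 in iTreg. With median centring the Th2 value was -0.76 and no longer past 2-fold. Dusp6, whose transcription is a common readout of ERK activity, had spot intensities of 4756.5 in Th2, 2853.5 in Th9 and 5790 in iTreg cells, against 3046, 3242 and 3191 in naive cells. The Th9 culture was the only one dimmer than its naive channel. The log2 ratio of Dusp6 was 0.10 ± 0.20 in Th2, -0.66 ± 0.21 in Th9 and 0.49 ± 0.21 in iTreg, all within 2-fold of naive. The Th2 value was 0.67 with median centring.

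Of the JNK and p38 phosphatases, Dusp16 was higher and Dusp10 was close to its naive level. Dusp16 had spot intensities of 1959.5 in Th2, 854.5 in Th9 and 567 in iTreg cells, against 138, 120 and 116 in naive cells. The Th2 culture was the brightest, and each culture was brighter than the naive channel of its array. The log2 ratio of Dusp16 was 3.44 ± 0.45 in Th2, 2.55 ± 0.38 in Th9 and 1.96 ± 0.34 in iTreg, which is 10.8-, 5.84- and 3.89-fold. With the scanner's processed signals the log2 ratios were 4.29, 3.39 and 2.85. The second Dusp16 probe was dim. It was well above background in the Th2 culture alone, at an intensity of 127 over a local background of 49, and was not well above background in any naive channel, which gives a Th2 log2 ratio of at least 0.59. It thus gives a bound in Th2 and no value in Th9 or iTreg. Dusp10 had spot intensities of 879 in Th2, 875 in Th9 and 961.5 in iTreg cells, against 1193, 1135.5 and 1193.5 in naive cells. Its log2 ratio was -0.73 ± 0.22 in Th2, -0.66 ± 0.22 in Th9 and -0.50 ± 0.21 in iTreg, below naive in each culture by less than 2-fold.

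Dusp14, the small phosphatase, was higher in every culture. It is known to bind CD28, the receptor that the cultures were stimulated through. Its spot intensity was 735 in Th2, 2479.5 in Th9 and 844.5 in iTreg cells, against 84, 89.5 and 85 in naive cells. The Th9 culture stood apart, and the naive channels lay within 0.046 log2 units of each other after scaling. The log2 ratio of Dusp14 was 2.62 ± 0.46 in Th2, 4.41 ± 0.59 in Th9 and 2.88 ± 0.46 in iTreg, which is 6.14-, 21.3- and 7.37-fold. As for Dusp4, the naive signal was low and the fold varied with the background correction, and the scanner's processed signals gave log2 ratios of 4.37, 5.74 and 4.29.

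**Figure D2:**
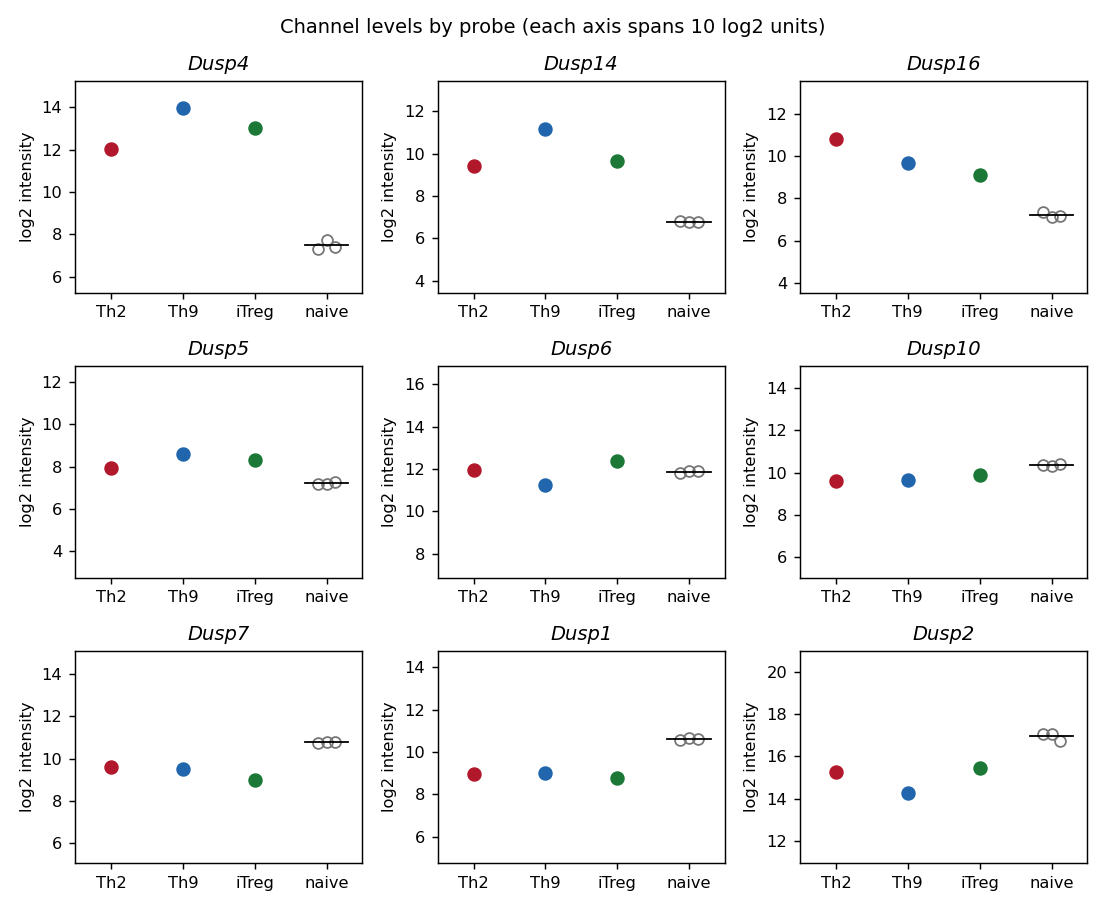
Normalised log2 channel intensity of each phosphatase gene in Th2, Th9 and iTreg cells (1 point each) and in naive cells (3 open points, 1 per array, with their mean as a line), each axis spanning 10 log2 units. Dusp4 stands at 12.05, 13.95 and 13.03 in the cultures over a naive mean of 7.48, and Dusp6 stays within 11.23 to 12.39 in all cells.

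The spread of the naive level over the 3 channels was a second view of the error, though the labels do not say whether these were separate RNA extracts. The SD of the naive level was 0.219 log2 units for Dusp4, 0.208 for Dusp2 and 0.127 for Dusp16, and 0.025 to 0.066 for the other 6 genes. The order of levels was Th9, iTreg, Th2 and naive, from high to low, for Dusp4, Dusp5 and Dusp14. It was Th2, Th9, iTreg and naive for Dusp16. Naive cells were highest for Dusp1, Dusp2, Dusp7 and Dusp10, and Dusp6 ran from iTreg over Th2 and naive to Th9. Neighbours in these orders were taken as separated when they differed by at least 2 combined spot errors, which belong to the scanner's own ratios. Cultures next to each other were not separated for Dusp1, Dusp4, Dusp5, Dusp7, Dusp10 and Dusp16. For Dusp2 and Dusp14, iTreg and Th2 were not separated and Th9 stood apart with loess, lowest for Dusp2 and highest for Dusp14. This separation depended on the processing. With the processed signals Dusp14 differed by 1.36 ± 0.75 in Th9 against Th2 and by -1.45 ± 0.74 in iTreg against Th9. With median centring Dusp2 differed by 0.80 ± 0.41 in iTreg against Th9. Each of these was under 2 combined errors. For Dusp6, iTreg was not separated from Th2, nor Th2 from naive cells.

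Differences between the cultures were taken as differences of the log2 ratios. A dye effect of the gene cancels there only as far as it is equal on the arrays. The loess shift differed between Th2, Th9 and iTreg, for example for Dusp2 (1.60, 1.21 and 0.47) and Dusp6 (0.57, 0.29 and -0.14). Th9 cells had Dusp4 and Dusp14 at least 2-fold higher and Dusp2 at least 2-fold lower than Th2 cells. That is 2 and 1 of 9 genes, where 1.28% of 10452 genes were higher and 1.35% were lower. The difference was 1.79 ± 0.75 for Dusp14, which ranked 27 from the highest, 1.48 ± 0.92 for Dusp4, and -1.04 ± 0.42 for Dusp2. Dusp16 (-0.89 ± 0.59), Dusp6 (-0.76 ± 0.30) and Dusp5 (0.69 ± 0.38) differed by less than 2-fold. For Dusp4, Dusp5 and Dusp16 the difference was under 2 combined errors.

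In iTreg against Th2 cells no gene of the family was at least 2-fold higher, where 6.86% of 10533 genes were, and Dusp16 was lower (1 of 9, where 6.68% were). Its difference was -1.48 ± 0.57. Dusp4 (0.88 ± 0.88) and Dusp7 (-0.69 ± 0.37) came next. With median centring, Dusp16 stood at -1.95, Dusp7 at -1.32, past 2-fold, and Dusp4 at 0.30, where the median of all genes stood at -0.59. Dusp2 and Dusp6, at 0.51 ± 0.35 and 0.39 ± 0.29 with loess, then stood at -0.63 and -0.33. In iTreg against Th9 cells Dusp2 and Dusp6 were at least 2-fold higher (2 of 9, where 6.8% of 10473 genes were) and Dusp14 was lower (1 of 9, where 6.29% were). The differences were 1.55 ± 0.41 for Dusp2, 1.15 ± 0.30 for Dusp6 and -1.53 ± 0.74 for Dusp14. With median centring Dusp2 and Dusp6 stood below the 2-fold mark in this comparison, where the median of all genes stood at -0.37. Each pair of these comparisons shares a culture, so they are not separate observations.

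**Figure D3:**
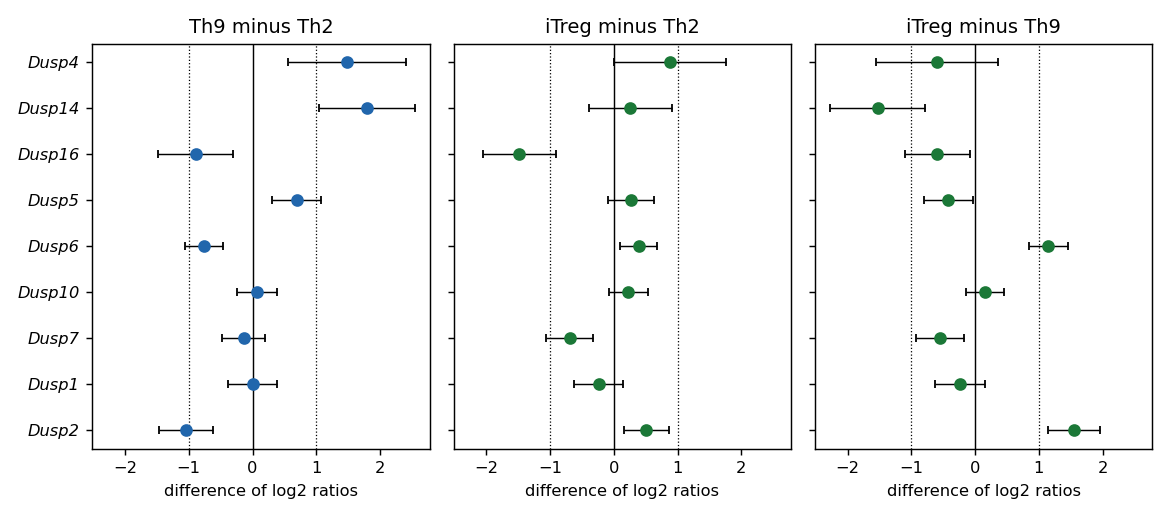
Differences of log2 ratios between cultures for each phosphatase gene (Th9 minus Th2, iTreg minus Th2, iTreg minus Th9), with the combined scanner error as whiskers and dotted lines at 2-fold. Dusp14 stands at 1.79 in Th9 over Th2, and Dusp6 at 1.15 in iTreg over Th9.

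Th9 cells were the highest culture for Dusp4, Dusp5 and Dusp14 and the lowest for Dusp2 and Dusp6 under the loess fit and all 6 other settings, median centring among them. Dusp16 was highest in Th2 and lowest in iTreg cells under the same 7. Among these settings, the mean of a gene's probes and no filter on dim spots could not change the values of the family. The deposited series values differ from the processed signals only by a constant per array. Over the 10343 genes measured on all 3 arrays, Th2 was the highest culture for 29.9% and iTreg the lowest for 42.9%, or 70.4% and 70.8% with median centring. Th9 was the highest culture for 27% of the same genes and the lowest for 30.6%, or 14.3% and 23.2% with median centring. The Th9 medium held both IL-4 and TGF-beta 1, and it held less IL-2 than the other 2 media. The part of the media in these values was not tested. Medium and array position cannot be told apart here.

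**Figure D4:**
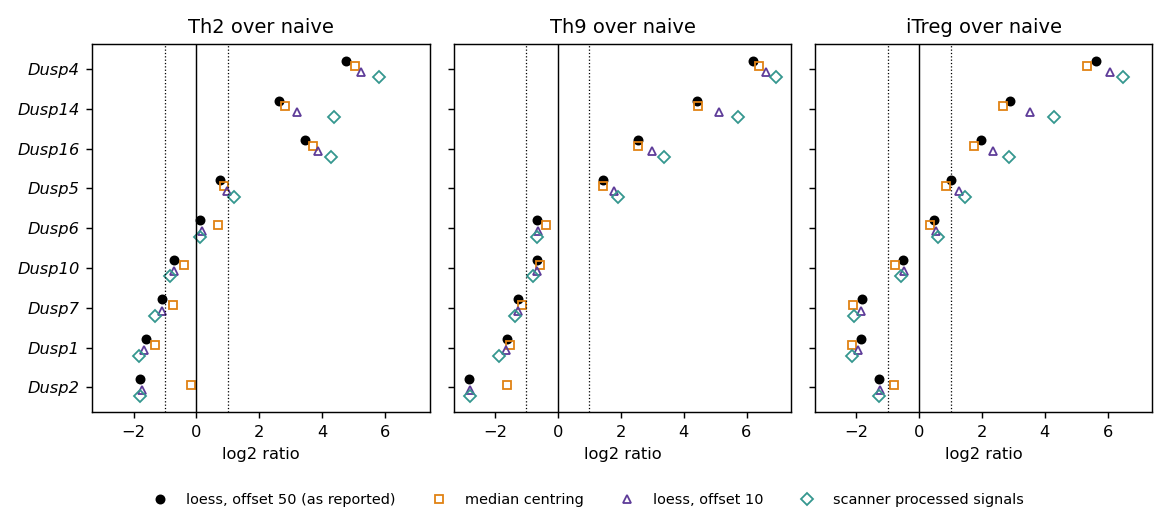
Log2 ratio of culture over naive for each phosphatase gene under 4 ways of processing (loess with offset 50 as reported, median centring, loess with offset 10, scanner processed signals), 1 panel per culture. Dusp2 moves from -1.78 to -0.18 in Th2 with median centring, and Dusp14 from 2.62 to 4.37 there with the processed signals.

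The sorted naive cells and the cultures were checked for other cell types, because Dusp1, Dusp2 and Dusp7 were lower than naive. All 6 T cell markers (Cd3d, Cd3e, Cd3g, Cd4, Cd28, Lck) were above background in every channel. In Th2, Th9 and iTreg, 4, 5 and 0 of them were at least 2-fold lower than in naive cells, with medians of -1.25, -1.30 and -0.42. Of 4 NK cell markers, 4 were above background in each naive channel, against 2 in Th2, 2 in Th9 and 1 in iTreg. Their summed processed intensity was 13590 in Th2, 4223 in Th9 and 771 in iTreg cells, against 79713 to 100392 in the naive channels. Ncr1 and Klrb1c were not well above background in any culture. The 5 myeloid markers summed to 10503, 9218 and 19162 in Th2, Th9 and iTreg, against 21919 to 24477 in naive. Lyz2 was above background in naive channels alone, with log2 ratios of at most -0.20, -0.47 and -0.54. Itgam (-1.15, -1.18 and -0.14), Csf1r (-0.60, -0.61 and -0.60) and Fcer1g (-2.57, -2.95 and -3.50) were above background in every channel. Other Csf1r probes gave 0.01 and -1.10 in Th2, 0.81 and -1.02 in Th9, and -0.46 and -0.28 in iTreg. Apart from its brightest probe, Itgam stood at 0.08 in Th2 and -0.76 in iTreg, with no other value in Th9. Of the B cell markers, Cd79a and Ms4a1 were at background in every channel, and Cd79b was higher at 2.08 in Th2, 2.03 in Th9 and 1.83 in iTreg. Of 2 CD8 T cell markers, Cd8a was at background in every channel, while Cd8b1 was above background in every channel, at 0.06, -0.80 and -0.30. The part of such cells in the lower level of Dusp1, Dusp2 and Dusp7 was not tested, and fewer cells of a type and less RNA per cell cannot be told apart in bulk RNA. Markers of the lineages went with the labels: Il4 was 5.08 in Th2, 1.04 in Th9 and not well above background in iTreg. Il9 was 6.52 in Th9 cells, at least 2.64 in Th2 cells and not well above background in iTreg cells. Foxp3 was -0.68 in Th2, 1.28 in Th9 and 3.49 in iTreg.

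The rest of the MAP kinase pathway was described with 6 lists, to show what moved beside the phosphatases. Of 20 other dual-specificity phosphatases, 9 were measured on all 3 arrays, 1 of them higher throughout and 1 lower. Ssh1, which acts on cofilin and not on MAP kinases, was the higher one (2.04 in Th2, 2.10 in Th9 and 1.18 in iTreg). Dusp12 was the lower one at -1.25, -1.37 and -1.23, though its other probe gave -0.79, -0.77 and -0.65. Dusp22, a small phosphatase that restrains signalling from the T cell receptor, was 1.28, 1.38 and 0.88. Dusp23 was -1.08 in Th2 and -1.04 in Th9 but 0.03 in iTreg. The medians of this list were -0.12 in Th2, -0.23 in Th9 and 0.09 in iTreg. Ssh3, another cofilin phosphatase, was 1.23, 0.82 and 0.86, and Dusp28 was -0.87, -0.78 and -0.12. The mean ratio over the 3 cultures was 1.77 for Ssh1, the highest of the 9 measured genes of this list.

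Of the 8 MAP kinases measured throughout, 1 was higher and 1 lower on all 3 arrays. Mapk3 (ERK1) was higher at 1.29 in Th2, 1.40 in Th9 and 1.01 in iTreg. Mapk14 (p38 alpha) was lower at -1.46, -1.58 and -1.08, while its other probe gave -0.54, -0.51 and -0.60. Mapk12 was 1.35 in Th2 and 0.09 in Th9 and was not measured in iTreg. Mapk6 was 0.78, 0.62 and 0.14, Mapk9 (a JNK) was 0.07, 0.07 and 0.15 (0.37, 0.39 and 0.18 by its other probe), and Mapk11 (p38 beta) was -0.17, -0.49 and -0.85. The list's medians were 0.07, 0.07 and -0.21.

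Among 26 measured genes upstream of the MAP kinases, Map2k1, the kinase directly above ERK, was the only one higher throughout, at 1.31 in Th2, 1.44 in Th9 and 1.32 in iTreg cells. No gene of the list was lower throughout. Map3k8, another activator of the ERK kinases, was 2.49 in Th2, 2.26 in Th9 and 0.99 in iTreg. Map2k6, a kinase above p38, was 1.69, 1.07 and 0.35. Rasgrp1, the exchange factor that couples the T cell receptor to RAS, was -1.44, -1.45 and -0.43. Map3k3, a kinase that activates the kinases of MAP kinases, was -0.87, -0.80 and -0.67. Map3k8 and Map2k6 were lower in iTreg than in Th2 by more than 2-fold, at -1.51 and -1.34, and Rasgrp1 was higher by 1.01.

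Of 14 other brakes on RAS and ERK measured throughout, 1 was higher and 2 were lower on all 3 arrays. Spry1, an inhibitor of RAS signalling, was the higher one, at 1.56 in Th2, 1.54 in Th9 and 3.65 in iTreg cells. The RAS GTPase activators Rasa3 and Rasal3 were lower. Rasa3 stood at -4.06, -2.85 and -1.48, and Rasal3 at -2.08, -2.59 and -1.95. Rasa1, of the same class, was -1.26 and -1.0 in Th2 and Th9 but 0.85 in iTreg. Ptpn22, a tyrosine phosphatase that acts on the kinases of the T cell receptor, was -0.45, 0.34 and 1.27. The adaptor Dok2 was -1.02, -1.56 and -0.78, and the ERK inhibitor Spred2 was 0.65, 0.99 and 0.81. Errfi1, an inhibitor of the EGF receptor, was 1.78, 1.35 and -0.18. In iTreg against Th2 cells, 4 of 15 genes of this list were at least 2-fold higher and 1 was lower, where 6.86% and 6.68% of all genes were. Median centring moved the median of all genes in this comparison to -0.59 and gave 239 instead of 723 genes higher over the whole array.

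Early genes that ERK switches on did not move as a block. Of 15 measured throughout, Fosl2 was higher, at 2.00 in Th2, 1.69 in Th9 and 1.51 in iTreg cells. Fos (-2.56, -3.04 and -2.79) and Jun (-2.62, -2.15 and -1.28) were lower, and Jund was -1.29, -1.91 and -0.29. Without regard to size, Fos, Fosb, Jun, Junb, Jund, Ier2 and Ier5 were below naive in every culture, as were Dusp1 and Dusp2. Fosl2, Ier3, Myc, Etv4 and Nr4a1 were above naive in every culture, as were Dusp4 and Dusp5 among the nuclear enzymes. Egr1 was 1.07 in Th2 cells, -0.38 in Th9 cells and 1.97 in iTreg cells. Egr2 was 0.99, -0.28 and 2.13. Both were highest in iTreg and lowest in Th9, the order that Dusp6 had with loess. Fosb, Jund, Ier2, Ier5 and Dusp2 had this order too, though iTreg exceeded Th2 by only 0.04 for Fosb and 0.07 for Ier2. Fos, Fosl2, Jun, Junb, Myc, Etv4, Etv5, Phlda1 and Nr4a1 did not have this order. Fosl2, Junb, Etv4 (0.86, 0.49 and 0.23) and Etv5 (0.01, -0.3 and -0.43) were lowest in iTreg. The share of all genes with this joint order was not counted. Over all genes measured on all 3 arrays, iTreg was the highest culture for 43.1% and Th9 the lowest for 30.6%. With median centring Dusp6 was lowest in Th9 too but highest in Th2 (0.67, against 0.35 in iTreg), while Egr1 and Egr2 stayed highest in iTreg. In Th9 against Th2 the differences were -1.45 for Egr1 and -1.27 for Egr2, and for Dusp6 -0.76 ± 0.30. Phlda1 had another order, at -0.44, 1.50 and 1.68, and Nr4a1 was 0.91, 1.18 and 1.80.

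Of 17 kinases and factors downstream of the MAP kinases, Mapkapk2, the kinase activated by p38, was higher at 2.03 in Th2, 2.13 in Th9 and 1.42 in iTreg. Zfp36l2, an RNA-binding protein that promotes mRNA decay, was lower at -3.14, -3.45 and -2.59. Elk1, a factor phosphorylated by ERK, was -1.37, -1.33 and -0.03, and Zfp36l1 was -1.31, -0.92 and 0.09. The related factor Elk4 was -1.25, -1.24 and -0.65. Other Elk4 probes gave -0.89 and -0.62 in Th2, -0.91 and -0.67 in Th9, and -0.33 and -0.59 in iTreg. Srf, the partner of Elk1 and Elk4, was -0.73, -1.21 and -0.81, while its other probe gave -0.15, -0.33 and -0.33. Elk3 was -1.13, -0.56 and 0.96, and its other 2 probes gave -0.08 and -0.25 in Th2. Mapkapk3 was 0.77, 1.29 and 0.98, and Rps6ka3 was 0.20, 0.20 and -0.09, while its other probe gave -0.64, -0.55 and -0.39. The list's medians were -0.63 in Th2, -0.65 in Th9 and -0.40 in iTreg.

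**Figure D5:**
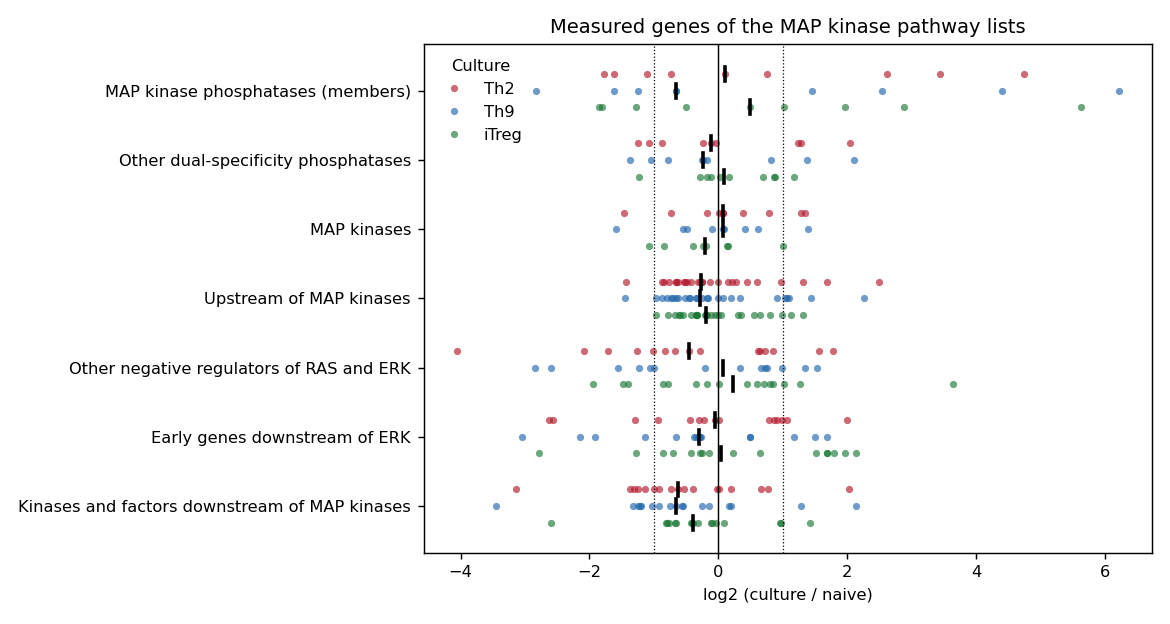
Log2 ratio of culture over naive for each measured gene of the 9 phosphatases and of 6 other MAP kinase lists, 1 row of points per culture (Th2, Th9, iTreg), with the median as a tick. Single points stand out in the other lists, such as Spry1 at 3.65 in iTreg and Rasa3 at -4.06 in Th2.

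The genes whose 3 ratios lay nearest to each phosphatase were found by distance over the 3 cultures, among 10343 genes. Dusp10 had 261 genes within 0.25 log2 units, with Phf12 and Alox5ap nearest. Dusp1 had 8 such genes, with Apoe and Exosc6 nearest. Dusp5 had 6, with Ptch1 and H1f1 nearest, and Dusp7 had 6, with Nup210 and Ppp1r15a nearest. Dusp6 had 3, with Rnf170 and Mterf2 nearest, at 0.214 and 0.232. Dusp2 had 1, Gimap4, at -1.68 in Th2, -2.72 in Th9 and -1.21 in iTreg; Trim21 came next at a distance of 0.28. Dusp4, Dusp14 and Dusp16 had none. The nearest to Dusp4 was Tubb6 (5.44, 5.60 and 5.27) at a distance of 1.004, the nearest to Dusp14 was Csrp2 (2.91, 3.79 and 2.74) at 0.695, and the nearest to Dusp16 was Fam71b (3.47, 2.40 and 2.25) at 0.322. The second nearest were Ak4, Mpzl1 and Hpse.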

How the data were processed

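Total RNA of each culture (Cy5) and of naive cells (Cy3) was hybridised to 3 Agilent arrays. The deposited files give, per the file headers, the median spot and background intensity of both channels, processed intensity values, and a log10 Cy5 to Cy3 ratio and its error on the log10 scale. Quantification was by Agilent Feature Extraction, version 11.0.1.1 per the file headers and version 9.3.2.1 per the submitters' processing notes. The deposited series values are log2 ratios of the processed signals plus a constant of 0.056, 0.021 and 0.037 for Th2, Th9 and iTreg, a match within 0.01 for 100% of single-spot probes; their column medians were 0.137, 0.258 and 0.283. Of 43020 gene spots per array, 50.5%, 48.9% and 51% were above background in Th2, Th9 and iTreg, against 53% to 54.1% in the naive channels; no spot was saturated. The number of arrays limits precision.

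Intensities were corrected by normexp (offset 50) and loess within each array (limma 3.58.1, R 4.3.3), and levels were scaled by Aquantile; control spots and 255 to 292 outlier spots per array were left out. Probes were named through RefSeq accessions of GRCm38.p6 (26055 of 39429, 66.1%); the brightest probe stood for a gene. Differences between cultures carry the root of summed squared errors. The other steps ran in Python 3.11.15 (pandas 2.3.3, numpy 2.4.6, matplotlib 3.10.9). The size rule was tested on simulated data. The alternatives were median centring, an offset of 10, processed signals, the mean of a gene's probes, no filter on dim spots and direct comparison of Cy5 channels, with the deposited series values added later. The members and lists were chosen with earlier results of these data known. Named were all members, the 3 highest and 3 lowest genes of each list, any list gene 2-fold apart between cultures, and the 2 nearest genes of each member, as far as measured, and a few list genes are not reported here; Mapk12 and the markers came with the lists.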

Additional observations from a re-analysis of the deposited data

Results flagged for a closer look

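Dusp6, the cytoplasmic ERK phosphatase, had ratios to naive of opposite sign in 2 cultures: 0.49 ± 0.21 in iTreg and -0.66 ± 0.21 in Th9 cells (log2, scanner error, 1 array each). The iTreg value exceeded the Th9 value by 1.15. With 1 array per culture this difference was not tested.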

How the results depend on the processing

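All 27 ratios and differences of the 9 genes that were at least 2-fold kept their sign under the 6 other settings that apply to them, and the 7 among them that compare cultures also in the direct comparison of the Cy5 channels. The mean of a gene's probes and no filter on dim spots could not change these values. Each gene had 1 measured probe, and it passed the filter. The series values differ from the processed signals only by a constant per array. Dusp2 in Th2, at -0.18 with median centring, was within its spot error of 0.26. Median centring in place of loess left 21 of the 27 past 2-fold, and each other setting left all of them. With median centring, 1 gene instead of 3 was lower in Th2 than in naive cells, 3 instead of 4 were higher (without Dusp5) and 2 instead of 3 lower (without Dusp2) in iTreg than in naive cells, 3 instead of 1 were lower in Th9 than in Th2 cells, 2 instead of 1 were lower in iTreg than in Th2 cells, and in iTreg against Th9 cells 0 instead of 2 were higher and 2 instead of 1 were lower. The direct comparison gave 2 instead of 1 lower in Th9 than in Th2 cells. Median centring moved the median of all genes to 0.33, 0.16 and -0.18 in Th2, Th9 and iTreg against naive, and to -0.23, -0.59 and -0.37 in Th9 against Th2, iTreg against Th2 and iTreg against Th9. Of the genes past 2-fold, 77.4% instead of 50.4% were then higher in Th2, 65.3% instead of 49.9% in Th9 and 40.6% instead of 55.7% in iTreg against naive. In the 3 culture comparisons, in the order above, the shares were 29.7% instead of 48.7%, 7.8% instead of 50.7% and 15.3% instead of 51.9%. Over all genes it gave 2779 instead of 1617 higher and 810 instead of 1591 lower in Th2 against naive, 241 instead of 141 lower in Th9 against Th2, 239 instead of 723 higher and 2828 instead of 704 lower in iTreg against Th2, and 320 instead of 712 higher and 1765 instead of 659 lower in iTreg against Th9. The deposited series values gave 231 instead of 141 lower in Th9 against Th2 and 1072 instead of 712 higher in iTreg against Th9. The cause of these changes was not tested. Of the 54 single values, 20 moved by more than their scanner error with median centring, 12 with the processed signals, 12 with the series values and 6 with the smaller offset. No paired analysis was possible because each culture had 1 array, and for the same reason no replicate could be left out. The naive signals of Dusp4, Dusp5, Dusp14 and Dusp16 were low, though above background, and the sizes of their ratios varied with the background correction while their direction did not.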
